A study of Homo sapiens with 6 samples.

Results

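Growth factor input into PI3K and AKT was followed through 10 genes, of 69292 gene IDs counted in 6 RNA sequencing libraries. The cells were MDA-MB-231, a mesenchymal-like breast cancer line without estrogen or progesterone receptors, from a human tumour. The genes were taken by symbol: 7 receptor tyrosine kinases (IGF1R, INSR, EGFR, ERBB2, ERBB3, MET and AXL), the docking adaptors IRS1 and IRS2, and the inhibitory adaptor GRB10. All 10 matched 1 gene ID each, and all 10 passed the filter on low counts, as did 21223 genes in all. The libraries fall into 3 groups of 2. The everolimus-resistant line (MDA-MB-231/DREVE) was kept in 20 µM everolimus, the ridaforolimus-resistant line (MDA-MB-231/DRRIDA) was kept in 30 µM ridaforolimus, and the parental line (MDA-MB-231/WT) had no drug according to the protocol, although a label field gives it DMSO. Each resistant line is a single derivative grown for months in its drug, so resistance, the presence of the drug and changes that arose in that culture cannot be told apart. Nothing in the labels says that the libraries of a group came from separate cultures, so p-values measure only the spread between these libraries, which may be technical. The study asked which transcripts go with acquired resistance to drugs against mTOR.

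Everolimus and ridaforolimus are analogs of rapamycin, which bind the immunophilin FKBP12 and block mTORC1. In untreated cells active mTORC1 restrains the receptors above it: its target kinase S6K phosphorylates IRS1 and marks it for degradation, and mTORC1 itself phosphorylates and stabilises GRB10, which binds the insulin and IGF receptors and damps their signal. When mTORC1 is blocked this brake is released and the receptors can drive AKT harder. FOXO transcription factors, which AKT holds out of the nucleus, are known to raise transcripts of INSR, IGF1R, IRS2 and ERBB3 when AKT activity is low. Much of this loop acts on proteins and phosphorylation, which RNA counts do not measure.

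Libraries held 13141320 and 15556246 counts in the everolimus-resistant line, 13134567 and 13451139 in the ridaforolimus-resistant line, and 13512908 and 14524155 in the parental line. Levels are given as normalised read counts in CPM, the count scaled to a common library size after TMM normalisation. The mesenchymal marker VIM had 302 to 646 CPM over the 6 libraries, the hormone receptor ESR1 at most 0.916 CPM, PGR at most 0.146 CPM and the epithelial cadherin CDH1 at most 0.229 CPM, while the epithelial keratins KRT8 and KRT18 had 263 to 428 CPM and 107 to 219 CPM. Summed levels of 5 markers of the mesenchymal-like line, VIM among them, were 820 to 1298 CPM in the everolimus-resistant and 1189 to 1586 CPM in the ridaforolimus-resistant libraries. In the parental libraries they were 836 to 838 CPM. Those of 8 luminal or epithelial markers were 504 to 627 CPM in the everolimus-resistant and 399.8 to 406 CPM in the ridaforolimus-resistant libraries. In the parental libraries these were 552 to 626 CPM. The part of either marker list in the results below was not tested. Summed leukocyte markers reached at most 0.658 CPM in any library. The spread between libraries differed by line: the log2 differences between the pair of libraries had an SD over genes of 0.520 in the everolimus-resistant, 0.492 in the ridaforolimus-resistant and 0.289 in the parental line. Only genes above a floor on the mean log2 CPM entered these SDs, so low genes such as ERBB3 are left out.

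AXL stood far above the other members, and ERBB3 far below them. Scaled to exon length, AXL averaged 238 CPM per kilobase over the 6 libraries (193 to 302), and EGFR came next at 38.9 (32.4 to 44.6). IRS2 followed at 31.0, MET at 25.4, IRS1 at 19.8 and IGF1R at 18.8 CPM per kilobase. The ranges of these genes over the libraries overlapped from each neighbour to the next, so the order of neighbours from EGFR to IGF1R is not firm. EGFR (at least 32.4) did lie above IRS1 (at most 31.1) and IGF1R (at most 26.4) throughout. INSR at 9.78, GRB10 at 8.66 and ERBB2 at 5.32 CPM per kilobase formed a lower tier, again with ranges that overlapped between neighbours. INSR (at least 8.83) lay above ERBB2 (at most 6.10) throughout. ERBB3 was lowest at 0.371 CPM per kilobase (0.154 to 0.647). Between neighbours, 3 steps were wider than the ranges over the libraries: AXL was 6.11 times EGFR, IGF1R was 1.92 times INSR, and ERBB2 was 14.3 times ERBB3. These orders held in 6 of 6 libraries each. Among 58 receptor tyrosine kinases counted, AXL ranked 1, EGFR 3, MET 4, IGF1R 5, INSR 7, ERBB2 12 and ERBB3 33 by mean level per kilobase, with the ephrin receptor EPHA2 at rank 2 with 117 CPM per kilobase. AXL alone took 46.0% and 53.9% of the summed receptor level in the everolimus-resistant libraries, 45.1% and 40.2% in the ridaforolimus-resistant libraries and 40.6% and 42.2% in the parental libraries.

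**Figure D1:**
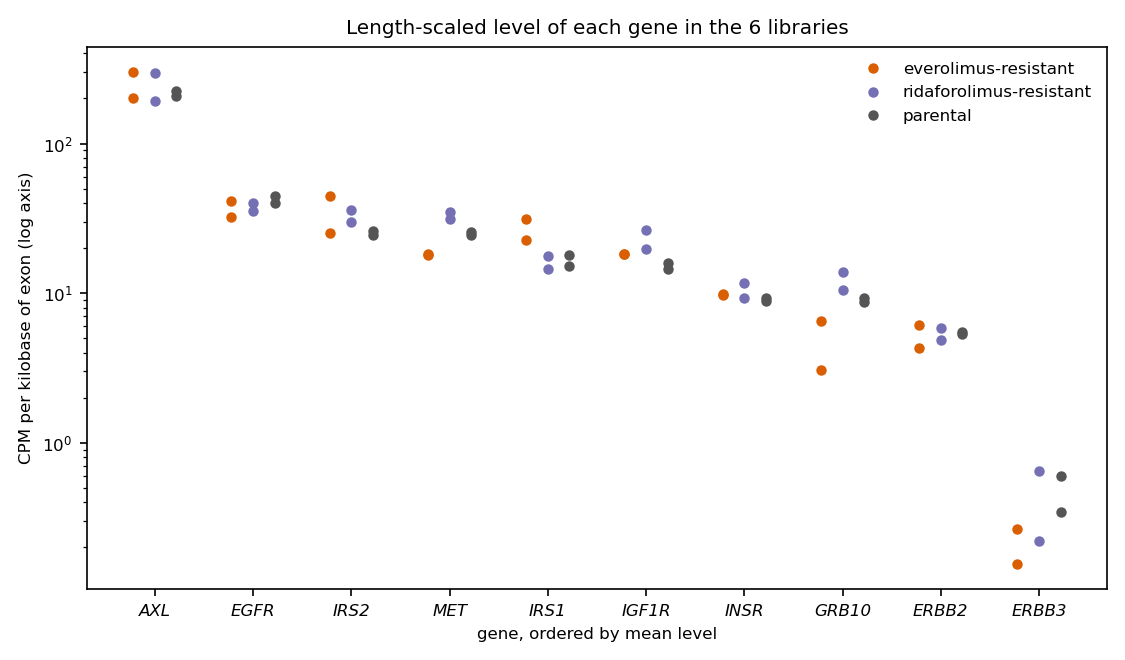
Level of the 10 genes in CPM per kilobase of exon (log axis), 1 point per library, ordered by the mean over the 6 libraries and coloured by line (everolimus-resistant, ridaforolimus-resistant, parental). AXL lies between 193 and 302, well above EGFR at 32.4 to 44.6, and ERBB3 lies between 0.154 and 0.647, below all the others.

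No member passed the test in any comparison. With edgeR's quasi-likelihood test over 21223 genes and a Benjamini-Hochberg adjusted p under 0.05, 0 of 10 members were called between the everolimus-resistant and the parental line, where 0.00471% of all genes were called, and 0 of 10 between the ridaforolimus-resistant and the parental line, where 0.32% were. Directly between the ridaforolimus-resistant and the everolimus-resistant line 0 of 10 were called, against 0.744% of all genes, and 0 of 10 for the mean of both resistant lines over the parental line, against 0.0236%. At an unadjusted p under 0.05 the counts were 3, 1, 3 and 1 of 10 in the same order, against 8.79%, 14.5%, 14.1% and 10.7% of all genes. DESeq2 called 0 members in the everolimus-resistant, the ridaforolimus-resistant and the mean comparison with the parental line, against 0.707%, 2.7% and 1.07% of all genes, and 2 (MET and GRB10) between the resistant lines, against 3.1%. limma-voom called 0 in each.

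Counted by whether the libraries of the groups overlap, 6 of 10 members stood apart from the parental libraries in the everolimus-resistant line (IGF1R, INSR and IRS1 higher, GRB10, ERBB3 and MET lower), against 41.1% of all genes (20.6% higher and 20.5% lower). In the ridaforolimus-resistant line 6 of 10 stood apart (IGF1R, INSR, IRS2, GRB10 and MET higher, EGFR lower), against 49.4% of all genes (25.1% higher and 24.3% lower). Between the resistant lines 4 of 10 did, with IGF1R, GRB10 and MET higher and IRS1 lower in the ridaforolimus-resistant line, against 41.2% of all genes (20.9% higher and 20.4% lower). IGF1R and INSR were the 2 members that were higher in all 4 resistant libraries than in both parental libraries, against 9.54% of all genes; 9.74% were lower in all 4, and 19.3% stood apart in either direction. The median log2 fold change of the 10 members was 0.02 for the everolimus-resistant over the parental line, 0.20 for the ridaforolimus-resistant over the parental line and 0.08 for the ridaforolimus-resistant over the everolimus-resistant line, against 0.02, 0.01 and -0.02 for all genes tested. Both comparisons with the parental line use the same 2 parental libraries, so their values are not independent.

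**Figure D2:**
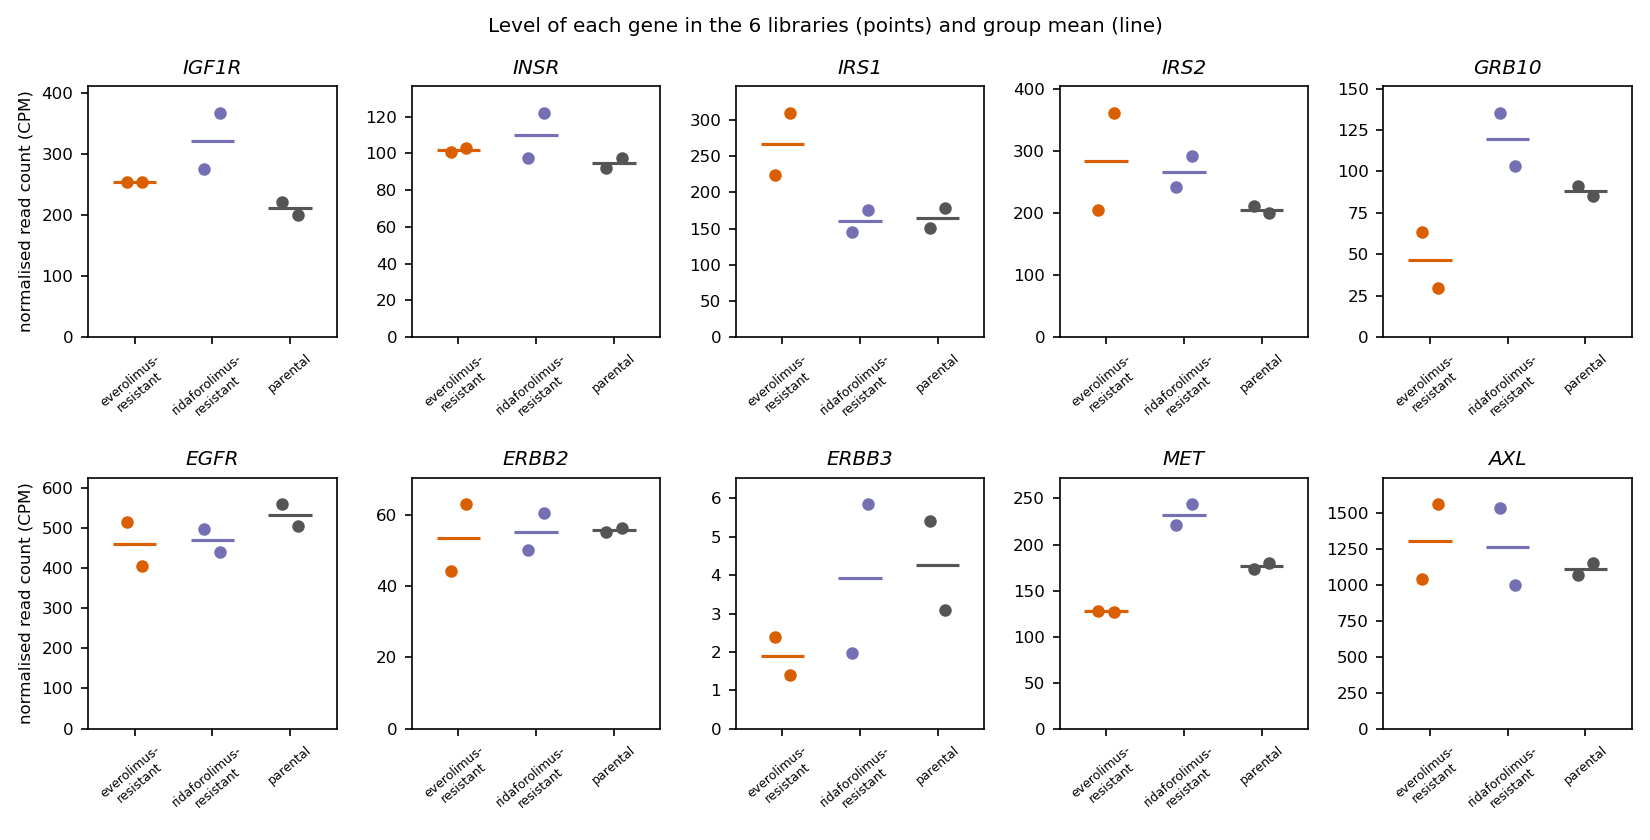
Normalised read count (CPM, linear axes from 0) of each of the 10 genes in the everolimus-resistant, ridaforolimus-resistant and parental line; points are libraries and lines are group means of 2. IGF1R is higher in all 4 resistant libraries than in the parental ones, while GRB10 and MET lie below the parental libraries in the everolimus-resistant line and above them in the ridaforolimus-resistant line.

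IGF1R, the receptor for IGF-1 and IGF-2, and INSR, the insulin receptor, are related kinases that signal through the IRS proteins. IGF1R (ENSG00000140443, chr15:98648539-98964530 on GRCh38, plus strand) had 254 and 254 CPM in the everolimus-resistant line, 276 and 368 CPM in the ridaforolimus-resistant line, and 221 and 201 CPM in the parental line. The 3 groups did not overlap, with the ridaforolimus-resistant libraries highest and the parental ones lowest. The log2 fold change over the parental line was 0.61 ± 0.21 (SE; 95% interval 0.14 to 1.08; edgeR adjusted p = 0.257) in the ridaforolimus-resistant line. It was 0.27 ± 0.21 (-0.20 to 0.74; edgeR adjusted p = 0.750) in the everolimus-resistant line. For the mean of both resistant lines it was 0.44 ± 0.18 (0.02 to 0.85; edgeR adjusted p = 0.452), so the higher counts did not pass the adjustment. The value of the ridaforolimus-resistant line rests in part on its library with 368 CPM: without ridaforolimus-resistant library 2 it was 0.40, and without library 1 of that line 0.79.

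INSR (ENSG00000171105, chr19:7112255-7294034, minus strand) varied least of the members, 1.32-fold between its highest and lowest library. It had 101 and 103 CPM in the everolimus-resistant line, 97.6 and 122 CPM in the ridaforolimus-resistant line, and 92.3 and 97.5 CPM in the parental line. The lowest ridaforolimus-resistant library lay just above the highest parental one. Relative to the parental line its log2 value was 0.10 in the everolimus-resistant line (edgeR adjusted p = 0.916) and 0.21 in the ridaforolimus-resistant line (edgeR adjusted p = 0.646). Taken within each library, which removes the library size, the ratio of IGF1R to INSR per kilobase was 1.89 and 1.85 in the everolimus-resistant line, 2.12 and 2.26 in the ridaforolimus-resistant line and 1.80 and 1.55 in the parental line. The ratio thus kept the order of the IGF1R levels, with no overlap between the 3 groups; it was not tested.

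IRS1 and IRS2 dock to the activated insulin and IGF receptors and recruit PI3K. They differed in which resistant line stood apart from the parental libraries. IRS1 (ENSG00000169047, chr2:226731317-226799759, minus strand) had 224 and 309.9 CPM in the everolimus-resistant line, 145 and 175 CPM in the ridaforolimus-resistant line, and 151 and 179 CPM in the parental line. Both everolimus-resistant libraries lay above all the others, while the ridaforolimus-resistant and parental libraries overlapped. Over the parental line, the fitted log2 fold change was 0.70 ± 0.23 (0.17 to 1.22; edgeR adjusted p = 0.502) in the everolimus-resistant line. In the ridaforolimus-resistant line it was -0.04 (edgeR adjusted p = 0.958). For the ridaforolimus-resistant over the everolimus-resistant line it was -0.74 ± 0.23 (-1.26 to -0.21; edgeR adjusted p = 0.203). Its size over the parental line rests in part on the library with 309.9 CPM: without everolimus-resistant library 2 it was 0.44, and that of the ridaforolimus-resistant over the everolimus-resistant line was -0.48.

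IRS2 (ENSG00000185950, chr13:109752698-109786568, minus strand) had 205 and 362 CPM in the everolimus-resistant line, 242 and 291 CPM in the ridaforolimus-resistant line, and 211 and 200.3 CPM in the parental line. Both ridaforolimus-resistant libraries lay above the parental ones, whereas an everolimus-resistant library lay between them. The log2 fold change over the parental line was 0.46 ± 0.28 (-0.17 to 1.09; edgeR adjusted p = 0.677) in the everolimus-resistant line and 0.37 ± 0.28 (-0.26 to 1.01; edgeR adjusted p = 0.568) in the ridaforolimus-resistant line. Without everolimus-resistant library 2 the log2 fold change of that line was -0.012 (0.82 without its library 1), and without ridaforolimus-resistant library 2 that of the ridaforolimus-resistant line was 0.24. The ratio of IRS1 to IRS2 per kilobase within a library was 0.893 and 0.701 in the everolimus-resistant line, 0.489 and 0.492 in the ridaforolimus-resistant line, and 0.584 and 0.729 in the parental line. It was lowest in the ridaforolimus-resistant libraries; the everolimus-resistant and parental libraries overlapped.

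The 250 bases before the transcription start are shown for both of these IGF-pathway genes, because FOXO factors are known to act at such promoters. Sequences are from RefSeq (GRCh38.p14), read along the gene's own strand, at chr13:109786584-109786833 (minus strand) for IRS2 and chr15:98648289-98648538 (plus strand) for IGF1R. Capitals mark TGTTTTG, the core of the insulin response element, searched on both strands together with the FOXO motif GTAAACA and the AP-1 motif TGAGTCA; IGF1R holds none of them and is in lower case throughout.
IRS2: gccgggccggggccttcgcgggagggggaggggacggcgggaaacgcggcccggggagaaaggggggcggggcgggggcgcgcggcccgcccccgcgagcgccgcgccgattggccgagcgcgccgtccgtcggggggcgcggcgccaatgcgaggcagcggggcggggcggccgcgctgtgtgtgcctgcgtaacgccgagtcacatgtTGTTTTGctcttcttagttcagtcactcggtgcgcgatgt
IGF1R: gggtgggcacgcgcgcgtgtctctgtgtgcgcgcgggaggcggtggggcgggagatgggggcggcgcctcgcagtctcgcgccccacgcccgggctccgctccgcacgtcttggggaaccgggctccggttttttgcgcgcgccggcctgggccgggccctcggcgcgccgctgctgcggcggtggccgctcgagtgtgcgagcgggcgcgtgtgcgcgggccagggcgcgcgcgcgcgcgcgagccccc
Of 35116 RefSeq windows of this kind 4.30% hold TGTTTTG on either strand, 2.98% hold GTAAACA and 4.20% hold TGAGTCA. The motif letters are a match and not a shown site. The windows of IRS2 and IGF1R are rich in G and C, 76.4% and 81.2%, against a median of 58% over all windows, and hold 42 and 48 CpG dinucleotides. RefSeq windows were at hand for 9 of the 10 members, ERBB3 being without one, and the motif TGTTTTG occurred only in that of IRS2.

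GRB10 binds the activated insulin and IGF receptors, competes with IRS proteins and favours receptor degradation; its transcript varied most of the 10, 4.52-fold between its highest and lowest library. GRB10 (ENSG00000106070, chr7:50590063-50793462, minus strand) had 63.6 and 29.9 CPM in the everolimus-resistant line, 135 and 104 CPM in the ridaforolimus-resistant line, and 91.4 and 85.0 CPM in the parental line. The 3 groups did not overlap: the everolimus-resistant libraries were below and the ridaforolimus-resistant libraries above both parental ones. Relative to the parental line the log2 fold change was -0.92 ± 0.33 (-1.68 to -0.16; edgeR adjusted p = 0.517) in the everolimus-resistant line. In the ridaforolimus-resistant line it was 0.44 ± 0.33 (-0.31 to 1.19; edgeR adjusted p = 0.577). Between the resistant lines it was 1.35 ± 0.33 (0.59 to 2.12), a 2.55-fold higher fitted level in the ridaforolimus-resistant line, with an adjusted p of 0.128 in edgeR and 0.0105 in DESeq2. The size depends on the everolimus-resistant pair, whose libraries had 63.6 and 29.9 CPM: without library 1 of that line, which leaves a lone library assumed to vary like the others, the log2 fold change was 1.99 (edgeR adjusted p = 0.028), and without library 2 it was 0.91 (edgeR adjusted p = 0.196). Over the parental line those values were -1.55 and -0.48, and without ridaforolimus-resistant library 1 that of the ridaforolimus-resistant line was 0.22.

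MET, the receptor of hepatocyte growth factor, showed the same arrangement of the 3 lines with closely agreeing libraries. MET (ENSG00000105976, chr7:116672390-116798386, plus strand) had 128 and 127 CPM in the everolimus-resistant line, 221 and 244 CPM in the ridaforolimus-resistant line, and 173 and 179.7 CPM in the parental line. Group means were 127 ± 0.574, 232 ± 16.2 and 176 ± 4.58 CPM (SD, n = 2 each) in that order, and no group overlapped another. Over the parental line, the fitted log2 fold change was -0.47 ± 0.18 (-0.88 to -0.06; edgeR adjusted p = 0.531) in the everolimus-resistant line. In the ridaforolimus-resistant line it was 0.40 ± 0.18 (-0.01 to 0.80; edgeR adjusted p = 0.355). Between the resistant lines it was 0.86 ± 0.18 (0.46 to 1.27), a 1.82-fold higher fitted level in the ridaforolimus-resistant line, with an adjusted p of 0.0792 in edgeR and 0.00346 in DESeq2. Leaving out single libraries moved this value only between 0.81 and 0.93.

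The windows before the start of GRB10 and MET are shown because these 2 members had the lowest p between the resistant lines. They lie at chr7:50793454-50793703 (minus strand; the most upstream of 5 RefSeq starts) and chr7:116671946-116672195 (plus strand), RefSeq, GRCh38.p14. Neither holds any of the 3 motifs, so both are in lower case throughout.
GRB10: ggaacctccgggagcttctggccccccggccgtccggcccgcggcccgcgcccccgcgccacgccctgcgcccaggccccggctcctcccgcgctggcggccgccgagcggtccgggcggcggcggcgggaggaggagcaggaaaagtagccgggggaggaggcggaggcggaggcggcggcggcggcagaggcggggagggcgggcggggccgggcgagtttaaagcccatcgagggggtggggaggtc
MET: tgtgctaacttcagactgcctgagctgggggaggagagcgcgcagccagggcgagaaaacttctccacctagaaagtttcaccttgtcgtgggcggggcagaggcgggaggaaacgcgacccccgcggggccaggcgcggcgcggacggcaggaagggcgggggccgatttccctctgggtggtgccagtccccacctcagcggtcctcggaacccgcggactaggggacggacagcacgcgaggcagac
G and C make up 81.6% of the GRB10 window and 68.4% of the MET window, with 37 and 24 CpG dinucleotides. GRB10, MET and EGFR all lie on chromosome 7. The 13 genes within 5 Mb of GRB10 with a mean of at least 1 CPM had a median log2 fold change of 0.06 for the everolimus-resistant over the parental line, where GRB10 had -0.92, and of 0.10 for the ridaforolimus-resistant over the everolimus-resistant line, where GRB10 had 1.35. The 32 such genes around MET had medians of 0.11 and 0.14, where MET had -0.47 and 0.86. For the ridaforolimus-resistant over the parental line the median was 0.29 around MET, with 25 of 32 above 0, where MET had 0.40, and 0.17 around GRB10, with 8 of 13 above 0, where GRB10 had 0.44. The 15 around EGFR had medians of 0.17 for the everolimus-resistant over the parental line, -0.03 for the ridaforolimus-resistant over the parental line and -0.10 between the resistant lines. The part of such neighbours in the results was not tested.

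**Figure D3:**
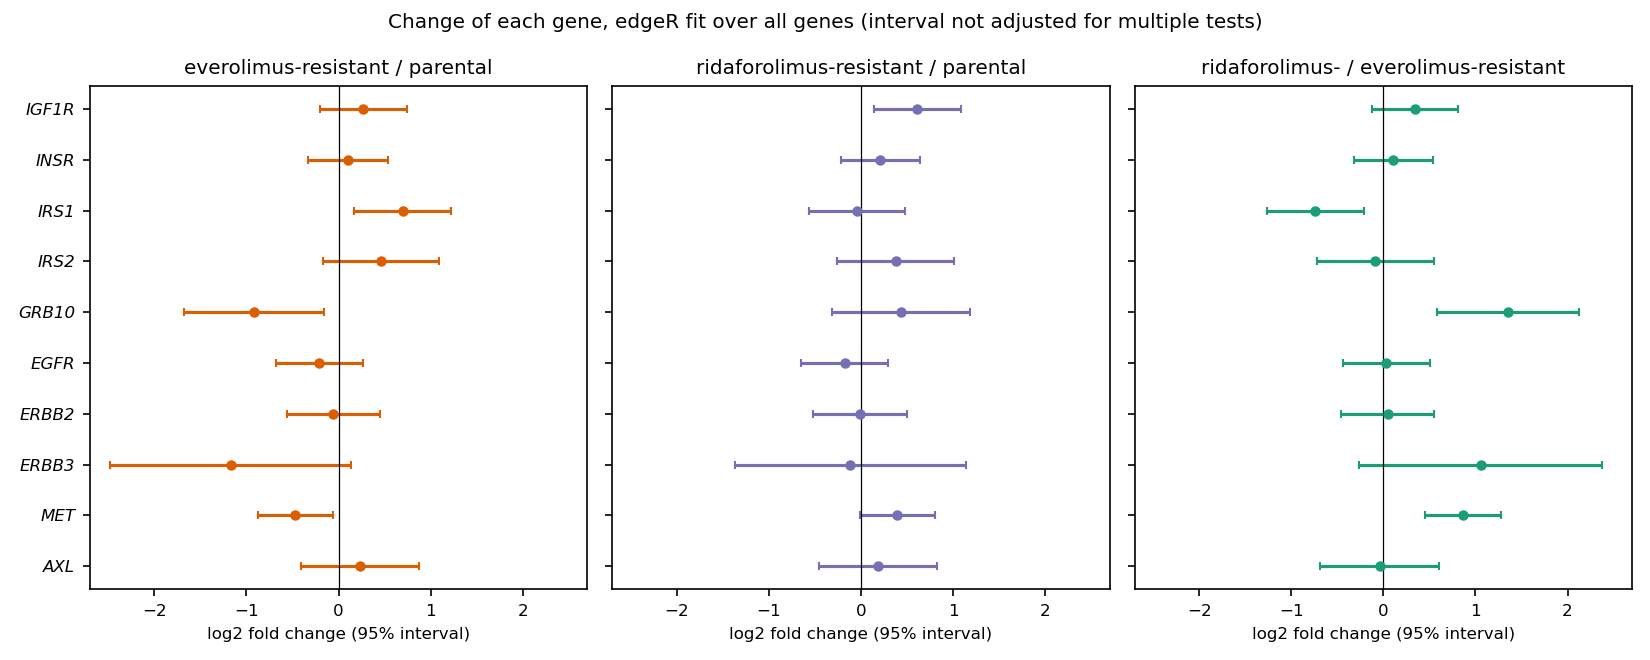
Log2 fold change of the 10 genes (points) with 95% intervals (bars, not adjusted for multiple tests) from the edgeR fit over all genes, for the everolimus-resistant over the parental line, the ridaforolimus-resistant over the parental line and the ridaforolimus-resistant over the everolimus-resistant line. GRB10 at 1.35 and MET at 0.86 lie right of 0 and IRS1 at -0.74 lies left of it between the resistant lines, while the interval of ERBB3 is the widest in each panel.

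EGFR, ERBB2 and ERBB3 are receptors of the EGF family; ERBB2 binds no ligand of its own, and ERBB3, whose kinase is weak, binds neuregulins and is a strong recruiter of PI3K once paired. EGFR (ENSG00000146648, chr7:55019021-55211628, plus strand) had 513 and 405 CPM in the everolimus-resistant line, 498 and 440.3 CPM in the ridaforolimus-resistant line, and 558 and 504 CPM in the parental line. The ridaforolimus-resistant libraries were below both parental ones, while an everolimus-resistant library lay between them. The log2 fold change over the parental line was -0.21 ± 0.21 (-0.68 to 0.26; edgeR adjusted p = 0.820) in the everolimus-resistant line and -0.18 ± 0.21 (-0.65 to 0.29; edgeR adjusted p = 0.737) in the ridaforolimus-resistant line. The ratio of MET to EGFR per kilobase within a library was 0.443 and 0.557 in the everolimus-resistant line, 0.788 and 0.984 in the ridaforolimus-resistant line, and 0.552 and 0.635 in the parental line. Only the ridaforolimus-resistant libraries stood apart in that ratio.

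**Figure D4:**
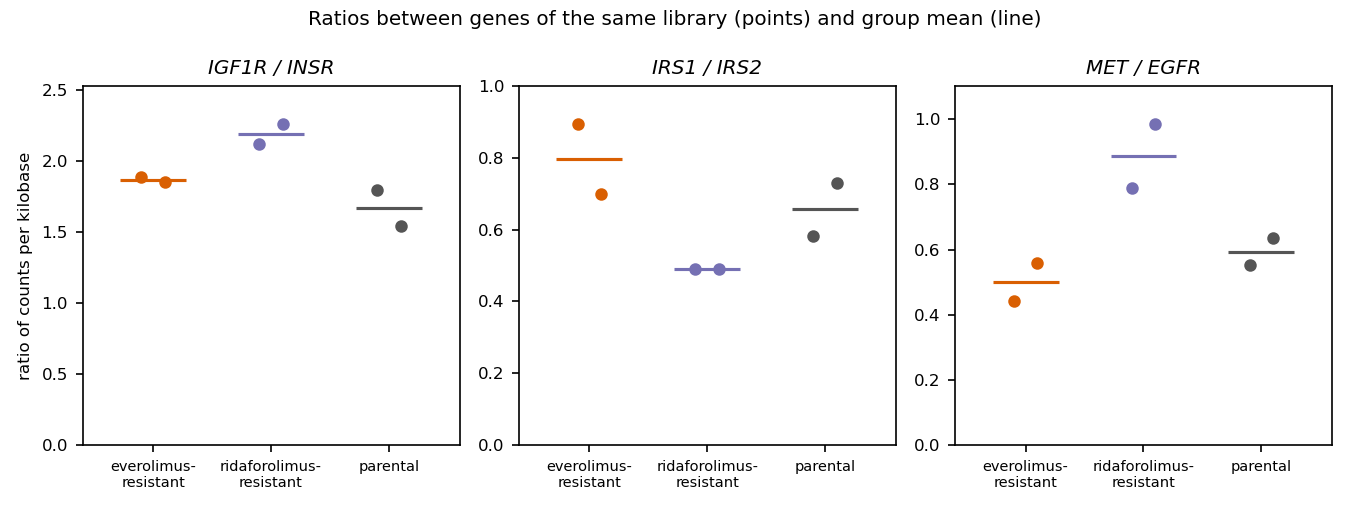
Ratios of counts per kilobase of exon between 2 genes of the same library (IGF1R to INSR, IRS1 to IRS2, MET to EGFR) in the everolimus-resistant, ridaforolimus-resistant and parental line; points are libraries, lines are group means of 2, and axes start at 0. The ridaforolimus-resistant libraries have the highest IGF1R to INSR ratios (2.12 and 2.26) and MET to EGFR ratios (0.788 and 0.984) and the lowest IRS1 to IRS2 ratios (0.489 and 0.492).

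ERBB2 (ENSG00000141736, chr17:39687914-39730426, plus strand) had 44.3 and 62.9 CPM in the everolimus-resistant line, 50.0 and 60.6 CPM in the ridaforolimus-resistant line, and 55.1 and 56.3 CPM in the parental line. The parental values lay inside both resistant ranges. Relative to the parental line the log2 fold change was -0.06 (-0.56 to 0.45; edgeR adjusted p = 0.962) in the everolimus-resistant line and -0.01 (-0.52 to 0.50; edgeR adjusted p = 0.988) in the ridaforolimus-resistant line. ERBB2 shares 571 exon bases with MIEN1 and 194 with PGAP3 on the opposite strand, and whether the counting used the strand is not given, so part of its count may belong to them or theirs to it.

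ERBB3 (ENSG00000065361, chr12:56076799-56103505, plus strand) had the lowest counts of the members. It had 33 and 21 counts (2.39 and 1.39 CPM) in the everolimus-resistant line, 26 and 80 counts (1.98 and 5.84 CPM) in the ridaforolimus-resistant line, and 71 and 44 counts (5.42 and 3.10 CPM) in the parental line. Both everolimus-resistant libraries were below the parental ones, and the ridaforolimus-resistant pair spanned them. The exact 95% Poisson interval of the lowest count, 21, is 13.0 to 32.1, which covers counting error only. Over the parental line, the fitted log2 fold change was -1.17 ± 0.57 (-2.48 to 0.14; edgeR adjusted p = 0.607) in the everolimus-resistant line and -0.12 ± 0.55 (-1.37 to 1.14; edgeR adjusted p = 0.950) in the ridaforolimus-resistant line. A level lower by 2-fold lies inside both intervals. Counting error is not the whole of that width, since the Poisson intervals of the ridaforolimus-resistant pair, 17.0 to 38.1 for 26 counts and 63.4 to 99.6 for 80 counts, do not overlap. Without parental library 1 the value of the everolimus-resistant line was -0.72.

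AXL, a receptor of the TAM family for the ligand GAS6 that is prominent in mesenchymal-like breast cancer cells, was abundant in every library. AXL (ENSG00000167601, chr19:41219203-41261766, plus strand) had 1043 and 1558 CPM in the everolimus-resistant line, 1531 and 996 CPM in the ridaforolimus-resistant line, and 1069 and 1149 CPM in the parental line. In each resistant line a library lay above and a library below both parental ones. The log2 fold change over the parental line was 0.23 ± 0.28 (-0.41 to 0.87; edgeR adjusted p = 0.859) in the everolimus-resistant line and 0.19 (-0.45 to 0.83; edgeR adjusted p = 0.803) in the ridaforolimus-resistant line. The other receptors of its family were far lower, TYRO3 at 3.95 and MERTK at 3.11 CPM per kilobase on average over the 6 libraries.

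Genes around the receptors were taken from 6 lists, and a single gene of them passed edgeR's test. Counts of the other tools are given for the everolimus-resistant and the ridaforolimus-resistant line over the parental line and for the ridaforolimus-resistant over the everolimus-resistant line, in this order; limma-voom called TIE1 in the second and no other listed gene. Of 51 other receptor tyrosine kinases 31 were tested, and 1 was called: TIE1, an endothelial receptor that pairs with the angiopoietin receptor TEK. It had 3.62 and 6.21 CPM in the everolimus-resistant line, 9.68 and 16.7 CPM in the ridaforolimus-resistant line, and 0.764 and 0.704 CPM in the parental line. TIE1 rose in the ridaforolimus-resistant over the parental line, with a log2 fold change of 4.15 ± 0.46 (adjusted p = 0.0145 in edgeR and 1.54e-11 in DESeq2). In the everolimus-resistant line the log2 fold change was 2.73 ± 0.46 (adjusted p = 0.205 in edgeR and 0.00031 in DESeq2). The call in the ridaforolimus-resistant line was lost without parental library 1 (edgeR adjusted p = 0.178), parental library 2 (0.214) or ridaforolimus-resistant library 2 (0.0614). Summed levels of 3 endothelial markers were 4.23 to 11.6 CPM in the everolimus-resistant, 1.91 to 6.65 CPM in the ridaforolimus-resistant and 8.45 to 12.4 CPM in the parental libraries. PECAM1 had 0.457 and 5.33 CPM in the ridaforolimus-resistant and 11.5 and 7.68 CPM in the parental line. VWF went the other way, with 1.30 and 1.24 CPM in the ridaforolimus-resistant and 0.458 and 0.704 CPM in the parental line. CDH5 had at most 0.382 CPM in any library. The part of these markers in the TIE1 values was not tested. At an unadjusted p under 0.05 there were 5, 7 and 11 of the 31 receptors, and DESeq2 called 2, 2 and 2. Of all genes tested, 8.79%, 14.5% and 14.1% had an unadjusted edgeR p under 0.05 in this order. DESeq2 called 0.707%, 2.7% and 3.1% of all genes, and edgeR called 0.00471%, 0.32% and 0.744%. The same shares stand beside the counts of the lists below. Their median log2 fold change was -0.11 in the everolimus-resistant and 0.20 in the ridaforolimus-resistant line over the parental line.

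Of 17 ligands of the member receptors 12 were tested and 0 were called by edgeR, with medians of -0.03 in the everolimus-resistant and 0.30 in the ridaforolimus-resistant line over the parental line. Unadjusted p-values were under 0.05 for 2, 3 and 2 ligands, and DESeq2 called 1, 2 and 1. AREG, the EGFR ligand amphiregulin, had 75.8 and 73.8 CPM in the everolimus-resistant line, 17.1 and 71.3 CPM in the ridaforolimus-resistant line, and 215 and 195 CPM in the parental line. All 4 resistant libraries were below both parental ones. Relative to the parental line its log2 value was -1.45 ± 0.52 in the everolimus-resistant line (edgeR adjusted p = 0.516) and -2.21 ± 0.53 in the ridaforolimus-resistant line (adjusted p = 0.141 in edgeR and 0.00126 in DESeq2). Without ridaforolimus-resistant library 2 the value of that line was -3.57 (edgeR adjusted p = 0.028), and without library 1 of that line it was -1.53. GAS6, the ligand of AXL, had 119 and 182 CPM in the everolimus-resistant line, 90.1 and 98.0 CPM in the ridaforolimus-resistant line, and 50.5 and 78.7 CPM in the parental line. All 4 resistant libraries were above the parental ones, with log2 fold changes of 1.22 ± 0.28 in the everolimus-resistant line (adjusted p = 0.332 in edgeR and 0.0274 in DESeq2) and 0.54 ± 0.28 in the ridaforolimus-resistant line (edgeR adjusted p = 0.416).

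A list of genes that set how much IGF reaches IGF1R (the IGF-binding proteins, the clearing receptor IGF2R, the protease PAPPA, and the stanniocalcins STC1 and STC2, which inhibit PAPPA and do not bind IGFs) gave 0 edgeR calls among 9 tested of 11, against 3, 1 and 5 at an unadjusted p under 0.05 and 1, 0 and 3 by DESeq2. Their medians were 0.24 in the everolimus-resistant and 0.17 in the ridaforolimus-resistant line over the parental line. IGFBP1, a known FOXO target in liver, had 11.9 and 16.4 CPM in the everolimus-resistant line, 6.02 and 6.43 CPM in the ridaforolimus-resistant line, and 6.04 and 5.00 CPM in the parental line. Its log2 fold change over the parental line was 1.36 ± 0.28 in the everolimus-resistant line (adjusted p = 0.272 in edgeR and 0.0171 in DESeq2) and 0.17 in the ridaforolimus-resistant line. IGFBP7 had 22.3 and 35.4 CPM in the everolimus-resistant line, 10.9 and 11.3 CPM in the ridaforolimus-resistant line, and 11.2 and 15.6 CPM in the parental line. The log2 fold change of IGFBP7 was 1.11 ± 0.29 in the everolimus-resistant over the parental line (adjusted p = 0.412 in edgeR and 0.108 in DESeq2). For the ridaforolimus-resistant over the everolimus-resistant line it was -1.38 ± 0.29 (adjusted p = 0.0862 in edgeR and 0.00427 in DESeq2). For both binding proteins the everolimus-resistant libraries were above all the others. STC2 had 9.56 and 3.97 CPM in the everolimus-resistant line, 8.16 and 1.90 CPM in the ridaforolimus-resistant line, and 16.7 and 15.6 CPM in the parental line. All 4 resistant libraries were below both parental ones, with log2 fold changes of -1.26 ± 0.61 in the everolimus-resistant line (edgeR adjusted p = 0.602) and -1.69 ± 0.62 in the ridaforolimus-resistant line (edgeR adjusted p = 0.282). STC1 had 21.95 and 7.34 CPM in the everolimus-resistant line, 23.6 and 82.4 CPM in the ridaforolimus-resistant line, and 64.4 and 19.4 CPM in the parental line. The ranges of both resistant lines overlapped the parental one.

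Adaptors downstream of the receptors gave 0 edgeR calls among 23 tested of 25, and the inhibitors, phosphatases and ubiquitin ligases 0 among 19 tested of 21. At an unadjusted p under 0.05 there were 2, 5 and 4 adaptors and 2, 3 and 3 inhibitors, and DESeq2 called 0, 2 and 1 adaptors and 0, 0 and 1 inhibitors. Medians over the parental line were -0.14 and 0.19 for the adaptors and -0.06 and -0.04 for the inhibitors, in the everolimus-resistant and the ridaforolimus-resistant line. SHC3, an adaptor that links receptors to RAS, had 46.0 and 51.1 CPM in the everolimus-resistant line, 48.5 and 75.2 CPM in the ridaforolimus-resistant line, and 28.4 and 24.7 CPM in the parental line. Its log2 fold change over the parental line was 0.87 ± 0.24 in the everolimus-resistant line (edgeR adjusted p = 0.437) and 1.22 ± 0.25 in the ridaforolimus-resistant line (adjusted p = 0.0940 in edgeR and 0.00424 in DESeq2), with all 4 resistant libraries above the parental ones. SOCS2, a feedback inhibitor best known from growth hormone signalling, had 4.27 and 6.68 CPM in the everolimus-resistant line, 6.63 and 1.53 CPM in the ridaforolimus-resistant line, and 12.6 and 13.9 CPM in the parental line. All 4 resistant libraries were below the parental ones, with edgeR adjusted p-values of 0.566 and 0.250 for the everolimus-resistant and the ridaforolimus-resistant line over the parental line. RNF41, the ubiquitin ligase NRDP1 that degrades ERBB3 protein, had 63.2 and 53.1 CPM in the everolimus-resistant line, 77.5 and 53.6 CPM in the ridaforolimus-resistant line, and 83.8 and 95.3 CPM in the parental line. It was again lower in all 4 resistant libraries. Its edgeR adjusted p over the parental line was 0.521 in the everolimus-resistant and 0.407 in the ridaforolimus-resistant line.

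The 11 genes of the mTORC1 feedback arm (mTOR complex components, S6 kinases, AKT and FOXO genes) were all tested, with 0 edgeR calls and medians of -0.12 in the everolimus-resistant and -0.21 in the ridaforolimus-resistant line over the parental line. Unadjusted p-values were under 0.05 for 1, 5 and 3 of them, and DESeq2 called 0, 2 and 2. FOXO4 had 7.75 and 6.61 CPM in the everolimus-resistant line, 18.9 and 34.2 CPM in the ridaforolimus-resistant line, and 10.8 and 6.90 CPM in the parental line. Its log2 fold change was 1.59 ± 0.35 in the ridaforolimus-resistant over the parental line (adjusted p = 0.115 in edgeR and 0.00475 in DESeq2). FOXO4 lies on chromosome X, where 55 of 56 neighbours within 5 Mb were above 0 in that comparison with a median of 1.42. For the ridaforolimus-resistant over the everolimus-resistant line FOXO4 had 1.89 ± 0.35 (adjusted p = 0.0645 in edgeR and 0.000248 in DESeq2). There 55 of the 56 neighbours were above 0, with a median of 1.46. The part of these neighbours was not tested. FOXO3, by contrast, had 81.8 and 73.3 CPM in the everolimus-resistant line, 63.3 and 64.0 CPM in the ridaforolimus-resistant line, and 93.7 and 96.7 CPM in the parental line. It was below the parental libraries in all 4 resistant ones. The edgeR adjusted p over the parental line was 0.670 in the everolimus-resistant and 0.209 in the ridaforolimus-resistant line.

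**Figure D5:**
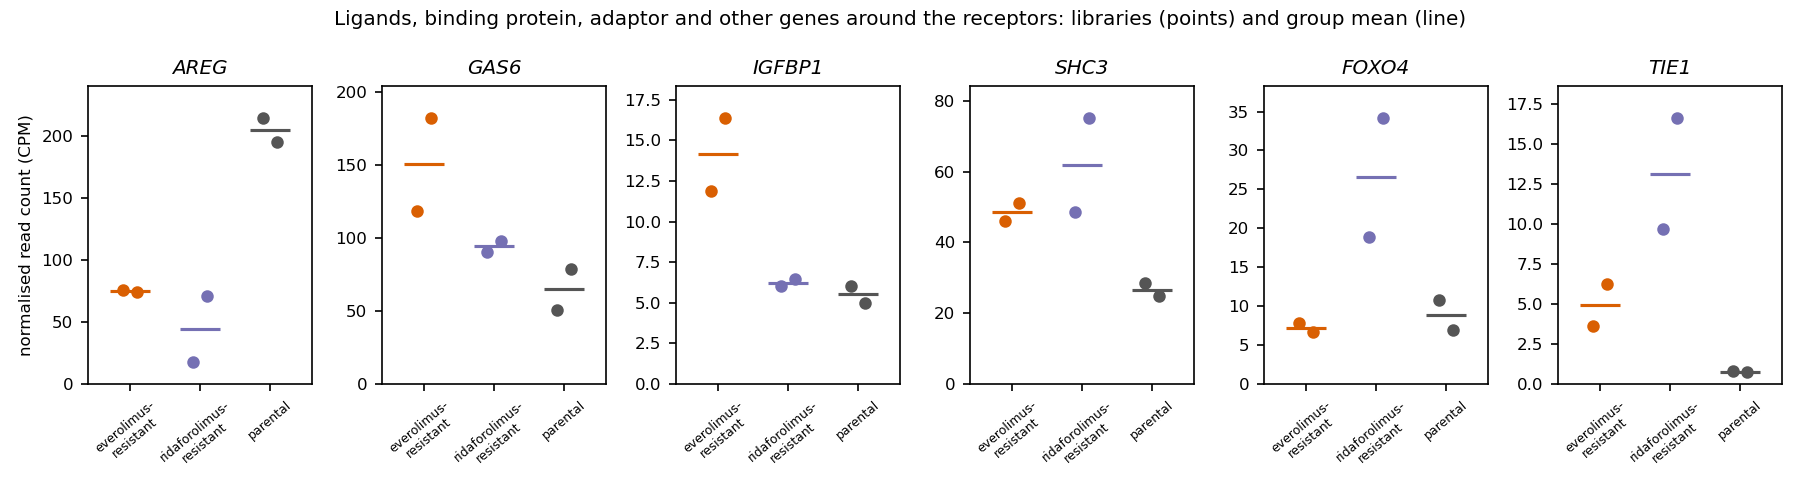
Normalised read count (CPM, linear axes from 0) of AREG, GAS6, IGFBP1, SHC3, FOXO4 and TIE1 in the everolimus-resistant, ridaforolimus-resistant and parental line; points are libraries and lines are group means of 2. AREG is below the parental libraries and GAS6, SHC3 and TIE1 above them in all 4 resistant libraries, IGFBP1 is highest in the everolimus-resistant line, and FOXO4 is highest in the ridaforolimus-resistant line.

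Among 18221 genes with a mean of at least 1 CPM, those whose log2 CPM followed MET most closely over the 6 libraries included PDZPH1P (Pearson r = 0.993) and FAM66B (0.990). PDZPH1P had 0.797 and 0.727 CPM in the everolimus-resistant line, 6.56 and 10.2 CPM in the ridaforolimus-resistant line, and 1.99 and 2.82 CPM in the parental line. Closest to GRB10 were PPP1R21 (0.994), TYRP1 (0.993) and GOLM2 (0.993). With 6 libraries in 3 groups and so many genes searched, values this high are a description of these libraries only.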

How the data were processed

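The deposited table holds raw counts by Ensembl ID for each library, neither normalised nor pooled. Per the submitters' processing notes, which state no roles, the tools were STAR 2.7.9a, Trim Galore 0.6.6, DESeq2 and HTSeq 0.13.5, and the build GRCh38; the kit was stranded, per the labels' protocols. How the counting treated the strand, and its annotation release, is not given in the sources used here. GENCODE 29 gave positions and exon lengths.

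The counts went into edgeR 4.0.16 (R 4.3.3) with TMM, filterByExpr by group, glmQLFit and glmQLFTest, two-sided, on 1 model of 3 groups and 6 libraries (3 residual degrees of freedom), with Benjamini-Hochberg adjustment over 21223 genes. CPM per kilobase used the merged exons of each gene. The fit was tested on simulated counts whose set changes were larger than any fitted for the members. It therefore does not show how well changes of the members' size would be found. Other tools were DESeq2 1.42.0 and limma 3.58.1 (voom). No molecular identifiers are stated, so intervals of counts cover counting error only. The total counts per library ran from 13134567 to 15556246, and ERBB3 rests on 21 to 80 counts per library.

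The members, lists and naming rule were chosen with earlier results of these data known. All members were named. Of each other list, called genes or up to 4 tested genes with the largest fold change over the parental line and a mean of at least 1 CPM could be named. For likeness, the 3 genes closest to each of the 2 members with the lowest p could be named. Some genes under these rules are not reported here. IRS2, IGF1R, GRB10 and MET were picked for printed sequences after their values were seen.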

Additional observations from a re-analysis of the deposited data

Results flagged for a closer look

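For 3 genes both libraries of a resistant line lay above, and both libraries of the other below, every parental library. These are 3 of the 30 members and named genes looked at (2 of the 10 members). Of the 21223 genes tested, 5.25% have this arrangement. Named genes outside the members were picked for a call or a large fold change over the parental line. That choice favours groups that stand apart, so their share and that of all genes are not a like comparison. The difference between the resistant lines was tested directly and passed DESeq2 but not edgeR for each of the 3 genes.

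GRB10 had a log2 fold change of 1.35 for the ridaforolimus-resistant over the everolimus-resistant line (adjusted p = 0.128 in edgeR and 0.0105 in DESeq2), with adjusted p-values from 7.67e-06 to 0.271 over the settings tried. MET had 0.86 (adjusted p = 0.0792 in edgeR and 0.00346 in DESeq2), with 0.00346 to 0.299 over the settings.

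DOK4, a docking protein of the insulin receptor, had 11.3 and 16.4 CPM in the ridaforolimus-resistant line, 6.01 and 5.02 CPM in the everolimus-resistant line, and 7.41 and 7.40 CPM in the parental line. Its log2 fold change for the ridaforolimus-resistant over the everolimus-resistant line was 1.33 (adjusted p = 0.0912 in edgeR and 0.00865 in DESeq2), with 0.00665 to 0.363 over the settings. The 57 genes within 5 Mb of DOK4 with a mean of at least 1 CPM had a median of 0.36 there, with 45 above 0. Over the parental line their medians were 0.29 in the ridaforolimus-resistant line (43 above 0) and 0.03 in the everolimus-resistant line (31 above 0). The part of these neighbours was not tested.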

How the results depend on the processing

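No other setting called a member in the ridaforolimus-resistant or mean comparison with the parental line, and for single genes every change of sign is given here. Testing genes without a filter on low counts called 1 member in the everolimus comparison (GRB10) and 3 between the resistant lines (IRS1, GRB10 and MET). In that fit edgeR took the spread of each gene from the trend over all genes, not from its own libraries. DESeq2 called 2 between the resistant lines. Leaving out single libraries called 0 members in each comparison with the parental line and 0 to 1 between the resistant lines (GRB10, without everolimus replicate 1); the lone library left in a group is then assumed to vary like the other groups.

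Genes called numbered 1 in the everolimus-resistant and 68 in the ridaforolimus-resistant line over the parental line, 158 between the resistant lines and 5 for the mean of both, in this order below. They were 493, 1195, 1362 and 653 without a filter, and 150, 574, 657 and 228 with DESeq2. With at least 5 CPM in 2 libraries they were 0, 81 and 1 for the everolimus, resistant-line and mean comparisons. With only the groups compared they were 0, 127 and 0 in the first 3 comparisons, and with limma-voom 2 for the mean. Leave-one-out counts ran from 0 to 3, 1 to 276, 19 to 123 and 1 to 39. With the replicate number as a block they were 0, 28, 49 and 1, with 0 members. The labels do not say whether the numbers pair the libraries. Replicate differences correlated at 0.329, -0.167 and -0.186 over genes between the groups of the first 3 comparisons. Values of mixed sign cannot decide whether libraries share a batch.

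Of 240 log2 fold changes of members with a library left out 21 changed sign, and of 270 under the other settings 2 did: with the 5 CPM filter, ridaforolimus-resistant over parental IRS1 became 0.0044 and ERBB2 0.034. Of the other named genes, 19 of 480 and 2 of 524 did, the 2 with limma-voom (GRB14 at -0.052, everolimus-resistant over parental, and PTPRJ at -0.013 for the mean). With single libraries left out, values that changed sign ranged as follows. Everolimus-resistant over parental, IRS2 ran from -0.012 to 0.82, ERBB2 from -0.34 to 0.18, AXL from -0.10 to 0.50, GRB14 from -1.25 to 0.99, CBLB from -0.73 to 0.11 and FOXO4 from -0.59 to 0.052. Ridaforolimus-resistant over parental, IRS1 ran from -0.18 to 0.082, ERBB2 from -0.15 to 0.11, ERBB3 from -1.09 to 0.45, AXL from -0.17 to 0.47, NRG4 from -0.15 to 0.66, STC1 from -0.81 to 1.44, GRB7 from -0.91 to 0.16 and PTPRJ from -1.24 to 0.13. Ridaforolimus-resistant over everolimus-resistant, INSR ran from -0.046 to 0.26, IRS2 from -0.45 to 0.38, EGFR from -0.13 to 0.20, ERBB2 from -0.20 to 0.32, AXL from -0.39 to 0.28, EGF from -0.16 to 1.62, STC2 from -1.82 to 0.33, SOCS2 from -1.84 to 0.29 and RNF41 from -0.12 to 0.43. For the mean of both, ERBB2 ran from -0.18 to 0.082, STC1 from -1.21 to 0.51, GRB14 from -0.00090 to 1.58, CBLB from -0.069 to 0.35 and PTPRJ from -0.34 to 0.35. The causes were not tested.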
